A study of Mus musculus with 8 samples.

Results

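The G protein-coupled receptors through which adipocytes raise or restrain lipolysis were examined in full-thickness skin of mouse embryos labelled PPARgamma wildtype or PPARgamma null. A list of 9 receptors was drawn up by their known role in adipocytes, and the 6 that could be matched to a transcript cluster with 1 gene symbol were described, out of 19938 genes named in that way; the other 3 were not analysed here. The 6 are Hcar1, Hcar2, Ptger3, Ptger4, Npy1r and Ffar4, and each had 1 transcript cluster (a set of array probes along a gene). The list was chosen by role with the differences between the genotypes already known, and Hcar1 and Ptger3 were selected on their lower values on the labelled-null arrays, so the differences of the receptors are given as a description and without p-values.

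The arrays carried RNA of whole skin at E17.5 from 4 embryos labelled PPARgamma wildtype, called control here, and from 4 embryos labelled PPARgamma null or PpargΔ/Δ. All embryos had a mixed C57BL6/SV129 background. The labels name neither the deleted part of Pparg nor the way it was deleted, and give no litter or sex, so errors measure the spread between individual RNAs. Values are log2 RMA values of 1 single-colour Affymetrix array per RNA, with 4 arrays per group limiting the precision. Medians of the arrays were 6.93 to 6.96 and their pairwise correlations 0.989 to 0.994 over 35556 transcript clusters, and the keratinocyte markers expected of skin averaged 11.93 to 12.14. On the first principal component, labelled-null array 4 (score of -21.7) lay away from the other arrays (-8.62 to 9.02). Control array 1 had the next lowest score (-8.62), followed by labelled-null array 2 (-3.12). The Pparg cluster itself read 8.79, 8.88, 9.04 and 9.06 on control arrays 1 to 4 and 9.14, 9.19, 9.19 and 8.98 on labelled-null arrays 1 to 4. It was not lower on the latter; whether its probes lie in the deleted part is not known, and the group is therefore called labelled Pparg null throughout.

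Adipocytes store triglyceride and release it as fatty acids and glycerol through lipases that protein kinase A switches on when cyclic AMP rises. Receptors coupled to the stimulatory G protein raise cyclic AMP, whereas receptors coupled to inhibitory G proteins lower it and hold lipolysis back. The lactate receptor HCAR1, the ketone body and niacin receptor HCAR2, the prostaglandin E2 receptor EP3 (Ptger3) and the neuropeptide Y receptor Y1 (Npy1r) belong to the inhibitory class. The prostaglandin E2 receptor EP4 (Ptger4) couples to the stimulatory protein, and FFAR4 senses long-chain fatty acids. PPARgamma, encoded by Pparg, is the nuclear receptor that drives adipocyte differentiation.

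Hcar1 and Ptger3, both inhibitory receptors, were lower on the labelled-null arrays, and Npy1r was higher. Ffar4, Hcar2 and Ptger4 overlapped between the groups, with Ffar4 slightly lower on average at a dim signal. The order of the differences was Hcar1 and Ptger3 at -0.63 each, Ffar4 and Ptger4 at -0.18 each, Hcar2 at -0.05 and Npy1r at 0.35, all log2 values on the labelled-null arrays minus control. These places in the order are a description, since Hcar1 and Ptger3 were chosen for their low values in this same contrast. In the limma fit over 15174 tested genes, 0.119% of genes passed an adjusted p of 0.05, 17 of 18 of them lower, which is 0.112% for the lower direction alone. Of the 5 receptors that entered the fit, 2 passed, both lower; nothing is read from that count because this contrast helped to choose them, and it was 0 without control array 2 or 3 or labelled-null array 1, 2 or 3 and 1 without control array 1 or 4. The count of 18 genes fell to 4, 4 and 5 without control arrays 2, 3 and 4 and to 5, 3 and 9 without labelled-null arrays 1, 2 and 3.

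**Figure D1:**
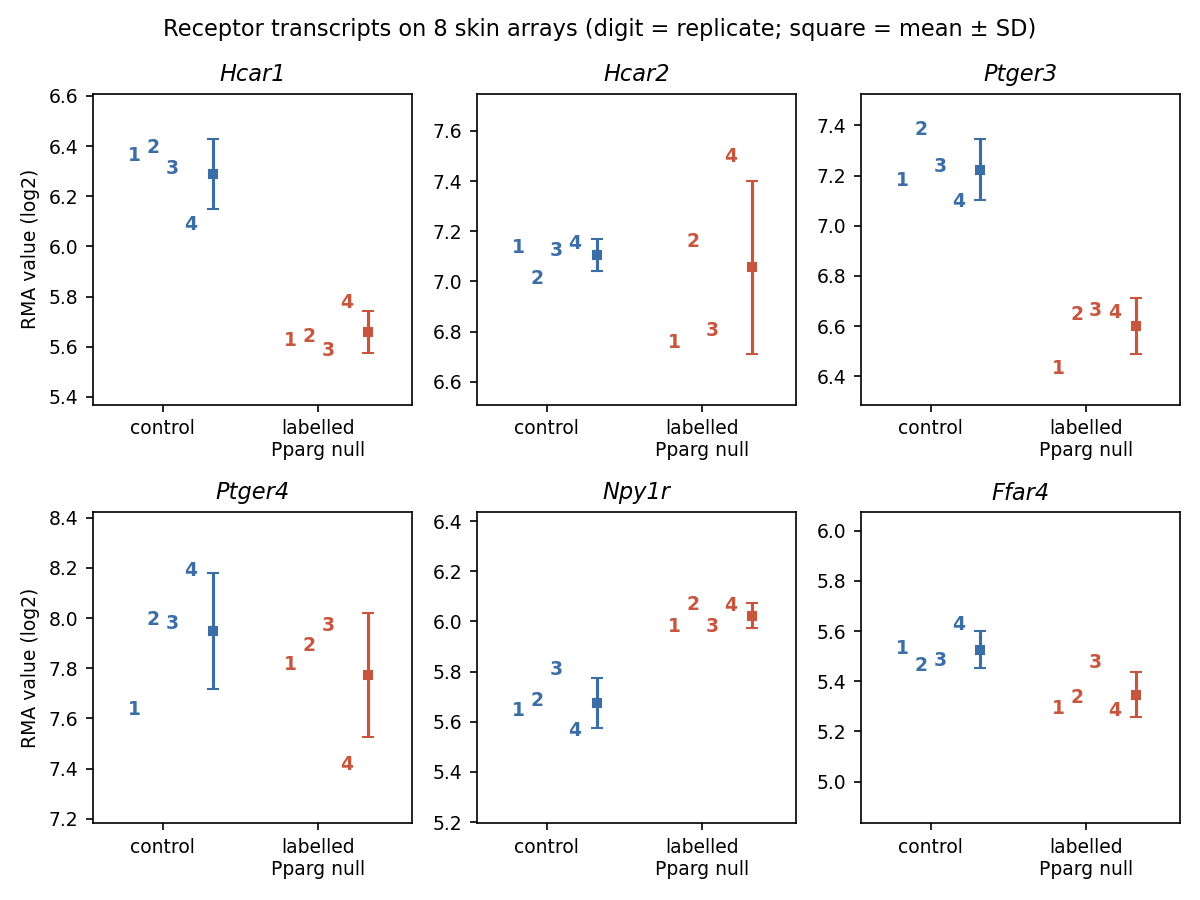
RMA values (log2) of the 6 receptor transcripts, 1 digit per array (the replicate number) with the group mean ± SD as a square, n = 4 per group; all panels span the same range of log2 units. Hcar1 and Ptger3 lie lower and Npy1r higher on all 4 labelled-null arrays, while Hcar2 spreads from 6.76 to 7.50 within that group.

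Hcar1 lets extracellular lactate restrain lipolysis. It read 6.36, 6.39, 6.31 and 6.09 on control arrays 1 to 4 and 5.63, 5.64, 5.58 and 5.78 on labelled-null arrays 1 to 4. The groups did not overlap, and the lowest control array, array 4, lay 0.31 above the highest labelled-null array, also array 4. The means were 6.29 ± 0.14 in control and 5.66 ± 0.08 in labelled-null skin (SD, n = 4), a difference of -0.63 (SE 0.076, 95% interval -0.80 to -0.46), or 1.55-fold with an interval of 1.38 to 1.74. Of the 15174 tested genes, 22 had a lower difference, which is a description because Hcar1 was chosen for its low values in this contrast. The gene entered the fit through the control group, since it was above the brightness filter (the 30th percentile of an array) on all 4 control arrays and on 1 labelled-null array; the labelled-null values sit close to that dim limit.

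Ptger3 encodes EP3, through which prostaglandin E2 lowers cyclic AMP. It read 7.18, 7.38, 7.24 and 7.10 on control arrays 1 to 4 and 6.43, 6.64, 6.66 and 6.66 on labelled-null arrays 1 to 4. The lowest control value lay 0.43 above the highest labelled-null value, so the groups were wider apart than for Hcar1, and labelled-null array 1 was the lowest of all 8. Means were 7.22 ± 0.12 and 6.60 ± 0.11 (SD, n = 4), a difference of -0.63 (SE 0.076, 95% interval -0.80 to -0.46), or 1.54-fold (1.37 to 1.74). Unlike Hcar1, Ptger3 was above the filter on all 8 arrays. Of all tested genes, 1.67% were lower on the labelled-null arrays with no overlap between the groups, and 0.784% were higher with no overlap.

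Leaving out 1 array at a time gave differences of -0.70 to -0.60 for Hcar1 and of -0.67 to -0.57 for Ptger3.

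**Figure D2:**
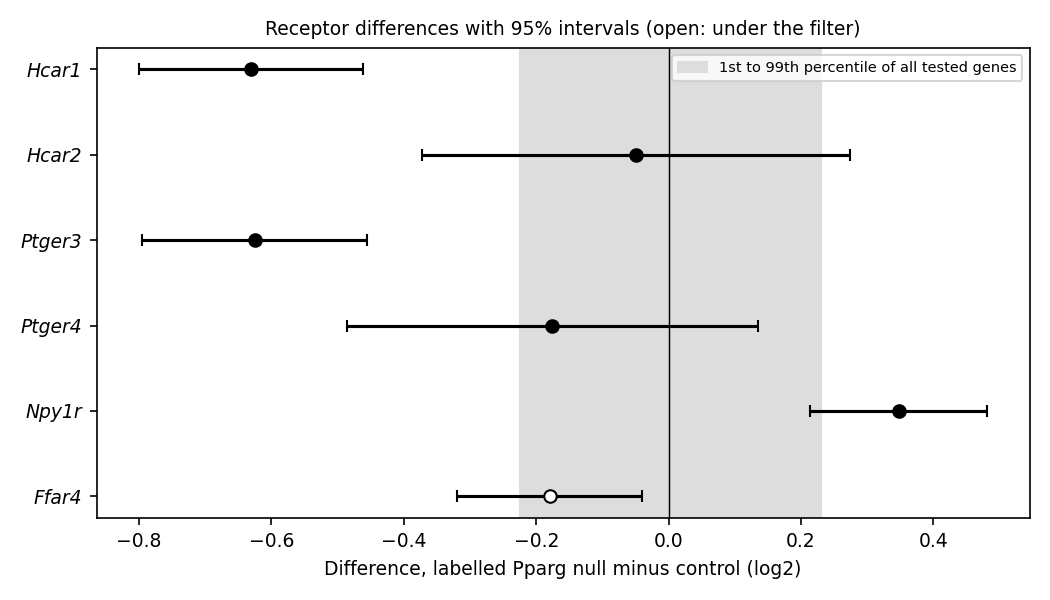
Difference between labelled Pparg null and control skin (log2) for each receptor, with its 95% interval from the limma fit; the grey band spans the 1st to the 99th percentile of all tested genes (-0.23 to 0.23), and the open point marks Ffar4, which lay under the brightness filter. Hcar1 and Ptger3 lie below the band and Npy1r above it.

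The promoters of Hcar1 and Ptger3 are shown because these are the receptors that were lower together, and because PPARgamma binds DNA with its partner RXR at 2 copies of AGGTCA spaced by 1 base. The sequences are RefSeq's, on build GRCm38.p6, run 5′ to 3′ on the strand of the gene and end just before its outermost annotated start; capitals mark CpG dinucleotides. The Hcar1 stretch is chr5:123880004-123880253 on the minus strand and the Ptger3 stretch is chr3:157566626-157566820 on the plus strand.
Hcar1: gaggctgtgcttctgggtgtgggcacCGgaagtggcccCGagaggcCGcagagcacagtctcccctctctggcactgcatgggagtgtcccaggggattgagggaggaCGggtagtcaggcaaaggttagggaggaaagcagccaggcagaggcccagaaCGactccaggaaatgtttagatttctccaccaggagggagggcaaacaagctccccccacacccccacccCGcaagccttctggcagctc
Ptger3: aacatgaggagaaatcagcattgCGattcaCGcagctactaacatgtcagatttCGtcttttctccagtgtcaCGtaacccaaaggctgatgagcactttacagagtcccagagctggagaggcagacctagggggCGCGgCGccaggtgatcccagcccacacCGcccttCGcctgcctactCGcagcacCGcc
The Hcar1 stretch holds 6 CpG in 250 bases and the Ptger3 stretch 11 in 195 bases, so CpG was denser in the Ptger3 stretch. Windows of 250 bases before an annotated start were available for 5 of the 6 receptors (Hcar1, Ptger3, Ptger4, Npy1r and Ffar4). Neither the single AGGTCA nor 2 copies spaced by 1 base (AGGTCANAGGTCA, with up to 2 mismatches in the copies) occurred on either strand in any of these 5 windows. Over all 32851 windows of that length, 14.0% held AGGTCA, 0.0335% the exact pair and 3.24% the pair with up to 2 mismatches; every exact pair also holds the single motif. The result covers these letters in these windows alone.

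Npy1r, the Y1 receptor for neuropeptide Y, went the other way. It read 5.64, 5.68, 5.81 and 5.57 on control arrays 1 to 4 and 5.98, 6.07, 5.98 and 6.06 on labelled-null arrays 1 to 4. All 4 labelled-null arrays lay above all control arrays, by 0.17 at the closest (control array 3). Means were 5.68 ± 0.10 and 6.02 ± 0.05 (SD, n = 4), a difference of 0.35 (SE 0.060, 95% interval 0.21 to 0.48), or 1.27-fold (1.16 to 1.40). It did not pass the adjusted threshold, and 39 tested genes had a higher difference. It was above the brightness filter on 4 labelled-null and 2 control arrays, so it entered the fit through the group where it was higher. Leaving out 1 array gave 0.31 to 0.39.

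Hcar2 lies beside Hcar1 on the same chromosome and answers to the ketone body beta-hydroxybutyrate and to niacin. It read 7.14, 7.01, 7.12 and 7.15 on control arrays 1 to 4 and 6.76, 7.16, 6.81 and 7.50 on labelled-null arrays 1 to 4. The groups overlapped: labelled-null arrays 1 and 3 lay below every control array and arrays 2 and 4 above every one. The means were nearly equal, 7.10 ± 0.06 and 7.06 ± 0.35 (SD, n = 4), with a difference of -0.05 (95% interval -0.37 to 0.27). The SD on the labelled-null arrays was larger than that of 97.4% of tested genes in the same group, against 29.5% for the control SD. Leave-one-out differences ran from -0.20 (labelled-null array 4 removed) to 0.05 (labelled-null array 1 removed), so the sign was not fixed. Hcar2 was highest on labelled-null array 4, the array with the most extreme component score, and the part of that array's other differences in this spread was not tested.

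Ptger4 encodes EP4, the prostaglandin E2 receptor that raises cyclic AMP. It read 7.63, 7.99, 7.98 and 8.19 on control arrays 1 to 4 and 7.81, 7.89, 7.97 and 7.42 on labelled-null arrays 1 to 4. The lowest array of each group, control 1 and labelled-null 4, was also the one with the most extreme component score. The difference was -0.18 (SE 0.139, 95% interval -0.49 to 0.13) between means of 7.95 ± 0.23 and 7.77 ± 0.25 (SD, n = 4). Leaving out both of those arrays gave -0.16, leaving out only labelled-null array 4 gave -0.06, and leaving out only control array 1 gave -0.28. Its SD exceeded that of 96.6% of tested genes in control and of 93.5% in labelled-null skin. The interval spans both a decrease and a small increase, so the data do not show that EP4 transcripts stayed at the control level.

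Ffar4, the receptor for long-chain fatty acids, was dim. It read 5.53, 5.46, 5.48 and 5.63 on control arrays 1 to 4 and 5.29, 5.34, 5.48 and 5.28 on labelled-null arrays 1 to 4. Labelled-null array 3 reached into the control range and the other 3 lay below it. It was above the filter on 1 control array and on no labelled-null array, and it was not among the tested genes. Its means were 5.53 ± 0.07 and 5.35 ± 0.09 (SD, n = 4), a difference of -0.18 with a 95% interval of -0.32 to -0.04 from a fit without the filter.

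By pattern over the 8 arrays, the tested gene nearest to both Hcar1 and Ptger3 was Mgst1, a microsomal glutathione transferase. Likeness was the root mean square difference between 2 genes' values after each gene was centred on its own mean. It was 0.091 log2 units between Mgst1 and either receptor, and 0.092 between Hcar1 and Ptger3 themselves. Centring on the mean of all 8 arrays leaves the difference between the groups in this measure. Hcar1 and Ptger3 were selected on that difference, so genes with a like difference come out near them. The likeness is therefore a description, and nothing is read from it. Bmper, a secreted BMP-binding protein, came next for both, at 0.098 from Hcar1 and 0.115 from Ptger3. Acot7, an acyl-CoA thioesterase, and the claudin Cldn15 stood among the nearest 5 for both receptors. Abcd2, a peroxisomal transporter of very long-chain fatty acids, completed the 5 for Ptger3, at 0.122, and the pseudogene Nlrp5-ps the 5 for Hcar1, at 0.142. For Npy1r the nearest was the membrane protein gene Ms4a4d at 0.074, the only gene higher past the adjusted threshold in the fit, followed by Ksr2, Cyld, Klhl6 and Chodl at 0.081 to 0.091.

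**Figure D3:**
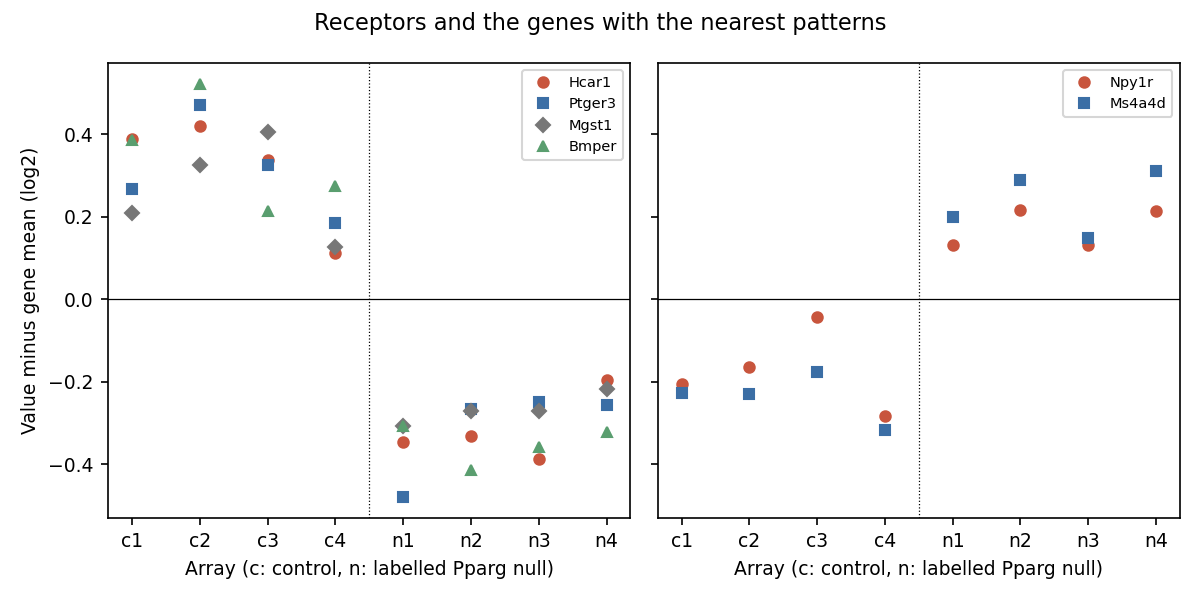
Values on each of the 8 arrays minus the gene's own mean (log2) for Hcar1 and Ptger3 with Mgst1 and Bmper (left), and for Npy1r with Ms4a4d (right); c1 to c4 are control and n1 to n4 labelled-null arrays. The genes were picked for this likeness, and control array 4 is the lowest control array for Hcar1, Ptger3 and Mgst1.

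Other receptors that bear on lipolysis mostly lay near 0. Of the close relatives of the receptors (other prostaglandin E2, adrenergic, adenosine, neuropeptide Y and free fatty acid receptors), 10 had a named cluster and 2 were bright enough to test. These were the EP1 gene Ptger1 (-0.03) and the alpha1B adrenergic gene Adra1b (-0.06), and none passed. Of 17 tested genes for further receptors, 8 lay below and 9 above control, none passed, and the median difference was 0.01, against 50.3% below control and a median of -0.0006 over all tested genes. Mc5r, a melanocortin receptor, was the lowest of them at 6.34 ± 0.22 in control and 5.86 ± 0.14 in labelled-null skin (SD, n = 4; limma adjusted p = 0.545), with groups that did not overlap. Calcrl, which forms adrenomedullin receptors, and Gipr, the receptor for the gut hormone GIP, differed by 0.19 and 0.24 (adjusted limma p 0.9995 for both).

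Genes that make or clear the receptors' ligands gave no call. Of 26 tested, 14 lay below and 12 above control, with a median of -0.01 and 1 gene at an unadjusted p under 0.05. That gene was Entpd1, an ectoenzyme on the path from ATP to adenosine, which differed by 0.22 (limma adjusted p = 0.9995). For the lactate receptor, the lactate dehydrogenase gene Ldha differed by 0.11, and for the prostaglandin receptors the cyclooxygenase gene Ptgs2 differed by 0.31, both with a limma adjusted p of 0.9995. Signalling genes behind the receptors were also without a call. None of 22 tested genes for G proteins, adenylyl cyclases, receptor kinases and arrestins passed (11 below, 11 above, median 0.0017, 0 with an unadjusted limma p under 0.05). The examples with the smallest p were Arrb1 at -0.11, Arrb2 at -0.13 and Gnaz at 0.23. Among 18 tested effectors of cyclic AMP none passed either (8 below, 10 above, median 0.02, 1 with an unadjusted limma p under 0.05). Prkar2b, the regulatory subunit of protein kinase A abundant in adipocytes, differed by -0.17, Prkar1a by 0.08 and the phosphodiesterase gene Pde3b, which carries insulin's brake on lipolysis, by -0.16; the adjusted limma p was 0.9995 for all 3.

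**Figure D4:**
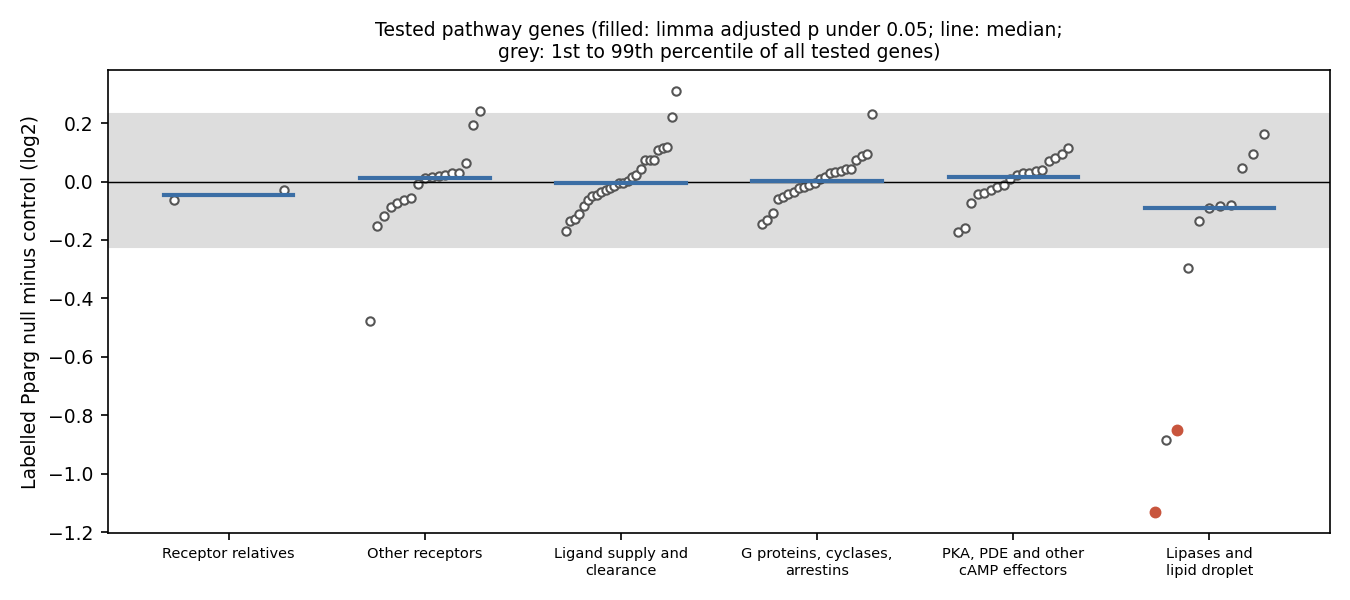
Difference between labelled Pparg null and control skin (log2) of each tested gene in 6 lists around the receptors, ordered within a list by size; blue lines are list medians, filled points passed a limma adjusted p of 0.05, and the grey band is the 1st to 99th percentile of all tested genes. Filled points occur only among the lipases and lipid droplet genes (Fabp4 and Aqp7).

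The lipases and lipid droplet genes on which the receptors act held the 2 pathway genes that passed. Of 11 tested, 8 lay below and 3 above control with a median of -0.09, and 4 were lower without overlap. Over all tested genes 50.3% lay below control, 0.112% passed as lower and 1.67% were lower without overlap. Fabp4, Aqp7, Plin1, Lipe and Pnpla2 also stood on the white adipocyte list, so the 2 calls are counted again there. Fabp4, the adipocyte fatty acid carrier, fell by 1.13 and Aqp7, the glycerol channel, fell by 0.85 on the log2 scale (limma adjusted p = 0.0189 and 0.0345). Plin1, the droplet coat that gates lipolysis, differed by -0.88 (limma adjusted p = 0.128) and the monoglyceride lipase gene Mgll by -0.30 (0.693); neither overlapped between groups. The lipase genes Lipe and Pnpla2 differed by only -0.14 and -0.08. Neither Fabp4 nor Aqp7 passed when control array 2, 3 or 4 or labelled-null array 1 or 2 was left out, where the count was 0, and Fabp4 alone passed without labelled-null array 4. Plin1 passed as well when control array 1 was left out, alone or together with labelled-null array 4, and when arrays were weighted by their quality, which made the count 3.

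White adipocyte markers were lower alongside Hcar1 and Ptger3. Of 15 tested markers 14 lay below control, 5 passed (Cd36, Fabp4, Trarg1, Lpl and Aqp7), 7 were without overlap between the groups, and the median difference was -0.38. Over all tested genes 50.3% lay below control, 0.112% passed as lower and 1.67% were lower without overlap. The mean level of the white adipocyte markers was 8.29 to 8.48 on the control arrays and 7.91 to 8.07 on the labelled-null arrays, with control array 1 the lowest of its group. The defining markers Adipoq and Lep lay under the brightness filter in this skin, at 5.40 and 4.72 in control and 4.57 and 4.58 in labelled-null skin. In RNA of whole skin, fewer adipocytes and less RNA per adipocyte cannot be told apart. Of the sebocyte markers 5 of 5 tested lay below control and 1 passed (Mgst1); Mgst1 and Mc5r did not overlap between the groups and the other 3 did. Their mean was 8.03 to 8.18 on control and 7.79 to 7.91 on labelled-null arrays. Cidea, a lipid droplet protein of brown fat and sebaceous glands that stood on the brown adipocyte list, lay the other way, at 6.02 to 6.22 on the control and 6.27 to 6.40 on the labelled-null arrays, without passing (limma adjusted p = 0.582). Mast cell markers averaged 9.57 to 9.81 on control and 9.39 to 9.57 on labelled-null arrays, with 6 of 8 tested below control and none passed (3 at an unadjusted limma p under 0.05). The count of calls over all marker lists was 6 with all 8 arrays, and it fell to 2 when control array 2, 3 or 4 was dropped. Dropping labelled-null array 1 or 2 gave 1 call, and dropping labelled-null array 3 gave 4. The count was 6 after dropping control array 1 and 5 after dropping labelled-null array 4. The genes called changed as well. With control array 2 dropped, the 2 calls were Cd36 and the mast cell marker Tpsab1. Tpsab1 read 6.14 on control array 2, below every labelled-null array (6.37 to 6.67), and 7.74 to 8.40 on the other control arrays. Its call therefore rests on the removal of that array, which also had the lowest control mean of the mast cell markers (9.57). With control array 1 dropped, Plin1 passed and Trarg1 did not. The part of these cell types in the lower Hcar1 and Ptger3 values was not tested.

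Marker lists of other cells that can carry the receptors overlapped between the groups. Macrophage markers, 6 of 10 below control, averaged 7.98 to 8.13 on control and 7.91 to 8.18 on labelled-null arrays. Langerhans and dendritic cell markers, 4 of 6 below, ran from 6.91 to 7.20 and from 6.85 to 7.20. Keratinocyte markers, 5 of 8 below, ran from 11.93 to 12.09 and from 11.95 to 12.14. Their mean was highest on labelled-null array 4, where Ivl read 11.82, against 11.34 or less on the other arrays. Most of the other keratinocyte markers, Krt15 and Krt5 among them, were highest on a control array. For Npy1r, endothelial markers (3 of 8 below) averaged 9.16 to 9.29 and 9.23 to 9.28, smooth muscle and pericyte markers (4 of 8 below) 8.77 to 8.91 and 8.63 to 8.99, and Schwann cell and nerve markers (3 of 4 below) 7.49 to 7.55 and 7.45 to 7.56. Brown adipocyte markers were split 3 below and 3 above, at 7.21 to 7.39 and 7.22 to 7.48. In these 7 lists limma called no gene past the adjusted threshold, and 2 had an unadjusted p under 0.05, Emcn and Cidea.

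**Figure D5:**
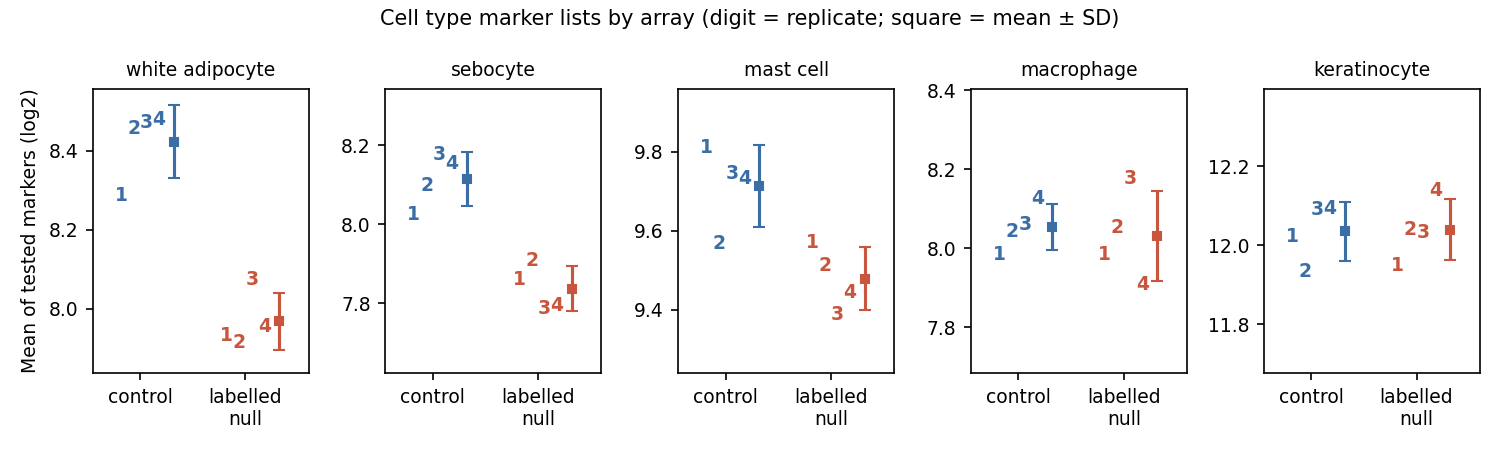
Mean RMA value (log2) of the tested markers of 5 cell types on each array, 1 digit per array (the replicate number), with the group mean ± SD as a square, n = 4 per group; all panels span the same range. The means of the white adipocyte and sebocyte markers are lower on every labelled-null array than on any control array, and those of macrophage and keratinocyte markers overlap.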

How the data were processed

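Total RNA of 8 skin samples was hybridised to single-colour Affymetrix arrays, per the labels' protocols. The deposited log2 values are the authors' RMA values; the submitters' processing notes name Affymetrix Expression Console and no version or build. Quantile normalization within RMA hides a shift of all genes together. Of 35556 clusters, 21789 had 1 symbol in the platform annotation, 1621 several, and 12146 were not listed; 21698 of the 21789 were matched by gene ID to RefSeq's symbols (GRCm38.p6). The brightest cluster represented a gene. Testing required a value over the array's 30th percentile on 4 or more of the 8 arrays (15174 of 19938 genes). limma 3.58.1 in R 4.3.3 (lmFit, eBayes, no covariates, two-sided, Benjamini-Hochberg over all tested genes, threshold 0.05) gave differences, labelled null minus control. The fit was also run on simulated data with independent noise for each gene and array. Those data hold no effects that span whole arrays, so nothing is read from that run about the calls made here. Receptors and lists were chosen with earlier results of these data known. Named genes are the receptors, Pparg, list genes past the threshold and the 5 nearest patterns (predicted genes, clones, olfactory receptors and other receptors of the list left out). Of the genes with the 3 smallest p per list, some are named and others, such as Scd1 and C1qa, are not. Mgll, Lipe, Pnpla2, Adipoq, Lep and Tshr were added after their values were seen. Alternatives were other filters (none, 50th percentile), median centring, cyclic loess, a trended robust prior, array weights, a replicate block, averaged clusters, a 1.5-fold minimum and left-out arrays. Protein sequences and scanner files were not used here.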

Additional observations from a re-analysis of the deposited data

Results flagged for a closer look

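A single array lay far from the other 3 of its group for 7 of the 158 sets of 4 values examined; chance flags about 1 set in 20. For Ptger3 this was labelled-null array 1, at 6.43 against 6.64 to 6.66, with all 4 values below every control array. For the mean of the white adipocyte markers it was control array 1, at 8.29 against 8.46 to 8.48. The mean of the cyclic AMP effectors was 8.30 on labelled-null array 4 against 8.44 to 8.46, and that of the ligand supply genes 8.36 on labelled-null array 1 against 8.45 to 8.46. Among single markers, the mitochondrial gene Cox8b read 9.45 on control array 2 against 9.23 to 9.24, the endothelial gene Vwf 8.003 on control array 2 against 7.83 to 7.86, and the smooth muscle gene Cnn1 6.82 on labelled-null array 3 against 6.63 to 6.65.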

How the results depend on the processing

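Hcar1, Ptger3, Ptger4, Npy1r and Ffar4 kept the sign of their difference in every alternative that gave them a value (16 or 17 each). Hcar2 kept it in 15 of 17, and all stayed within 1 SD of the value reported. Much of this was fixed beforehand. With 1 cluster per receptor, dropping the filter, the trended robust prior, the replicate block and averaged clusters cannot change a difference. Where the groups do not overlap (Hcar1, Ptger3 and Npy1r), leaving out an array cannot reverse the sign. Hcar1 and Ptger3 each passed the threshold in 10 of 18 alternative fits. As reported, 18 genes passed, of the receptors 2, of the pathway lists 2 of 96 tested and of the marker lists 6 of 78. Fabp4 and Aqp7 are counted in both kinds of list. Leaving out 1 array gave 3 to 15 genes, 0 to 2 receptors, 0 to 3 pathway genes and 1 to 6 marker genes; fits with fewer arrays have less power. Filtering at the 50th percentile left 1 receptor (Ptger3; Hcar1 was then not tested) and 1 pathway gene (Fabp4). Removing both control array 1 and labelled-null array 4 left 1 receptor (Hcar1). The labels do not say whether arrays of equal replicate number belong together. Across tested genes, deviations from the group mean correlated at -0.31, 0.20, 0.05 and -0.03 between arrays of equal number. For 0 of 8 arrays was the same-numbered array the closest. With 4 arrays per group and effects that span whole arrays, these values cannot exclude a pairing. With the replicate block 1 gene (the marker Cd36), 0 receptors, 0 pathway genes and 1 marker gene passed. The depth limit here is signal over background: Hcar1, Npy1r and Ffar4 sat near the dim limit.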

Other observations

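Tshr, the thyrotropin receptor, whose ligand raises lipolysis in adipocytes, stood on the list of other receptors but under the brightness filter, and was singled out after its values were seen. It read 5.27, 5.56, 5.57 and 5.69 on control arrays 1 to 4 and 4.78, 4.68, 4.92 and 4.78 on labelled-null arrays 1 to 4. The groups did not overlap, and the difference was -0.73 (SE 0.091, 95% interval -0.94 to -0.53), or 1.66-fold. In the limma fit without the filter it passed (adjusted p = 0.023), 1 of 16 genes that did; both groups are dim, so the fold rests on signal near background.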
